A study of Drosophila melanogaster with 2 samples.

Results

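Larval storage proteins, fat body proteins and lipoproteins were read on Affymetrix DrosGenome1 chips, 1 for each genotype. The members were the larval serum protein genes Lsp1alpha, Lsp1beta, Lsp1gamma and Lsp2, the fat body protein genes Fbp1 and Fbp2, and the lipoprotein genes apolpp, Apoltp and Mtp. A member was taken from every probe set whose annotation named that gene alone, which gave 6 of the 9 genes through 7 of the 14010 probe sets; in all, 10843 genes had such a probe set. No probe set was annotated with Lsp1alpha, Lsp1beta or Lsp1gamma alone or together with other genes, so these 3 genes are not analysed here. The control was yw, a stock that carries yellow, a mutation of body colour, and white, one of eye colour, and the other group was homozygous for a mutation of mbf1. Per the labels, whole animals of both groups were embryos held on apple juice plates at 25 °C for 16 h after the eggs were laid. The labels give neither the lesion in mbf1 nor whether the mutant stock also carries yellow and white.

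The fat body is the insect organ that stores nutrients and secretes most haemolymph proteins. Late in larval life it releases hexamerins, large storage proteins built of similar subunits, and takes them back before metamorphosis as a store of amino acids. It also makes lipophorin, the lipoprotein that carries lipid through the haemolymph between gut, fat body and other organs. MBF1 is a coactivator that bridges transcription factors and the TATA-binding protein, and the comparison asked which transcripts depend on it.

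Signals below are MAS5 intensities after the mbf1 array was brought to the level of the yw array, a shift of 0.55 in log2, or 1.47-fold. A signal above 17.7 was counted as above the floor. Genes with at least 1 of their 2 signals past the floor, 7675 in number, are called measured, and signals under the floor were raised to it before a ratio was taken. Ratios are log2 of mbf1 over yw, and the median over all measured genes was -0.0011. With 1 array per genotype no replicate error and no test exist for any value: every difference describes this pair of arrays. In whole animals, fewer cells of a type and less RNA per cell cannot be told apart. The mbf1 transcript had a signal of 478.7 in yw and 22.1 in the mutant. The ratio of the 3' to the 5' probe set, a measure of RNA integrity, was 2.33 in yw and 2.20 in the mutant for actin, 2.57 and 2.88 for GAPDH, and 3.09 and 2.55 for eIF-4a.

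Lsp2 was lower in the mutant. Among the lipoprotein genes apolpp was 1.44-fold higher, while Apoltp and Mtp differed little, with 24.3% and 26.3% of measured genes as high. Of the 5 measured members, Lsp2 was at least 2-fold lower and 0 were at least 2-fold higher. Over all measured genes 1.62% were at least 2-fold lower and 1.51% at least 2-fold higher. The median ratio of the 5 members was 0.23, with 2 ratios below 0 and 3 above it.

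**Figure D1:**
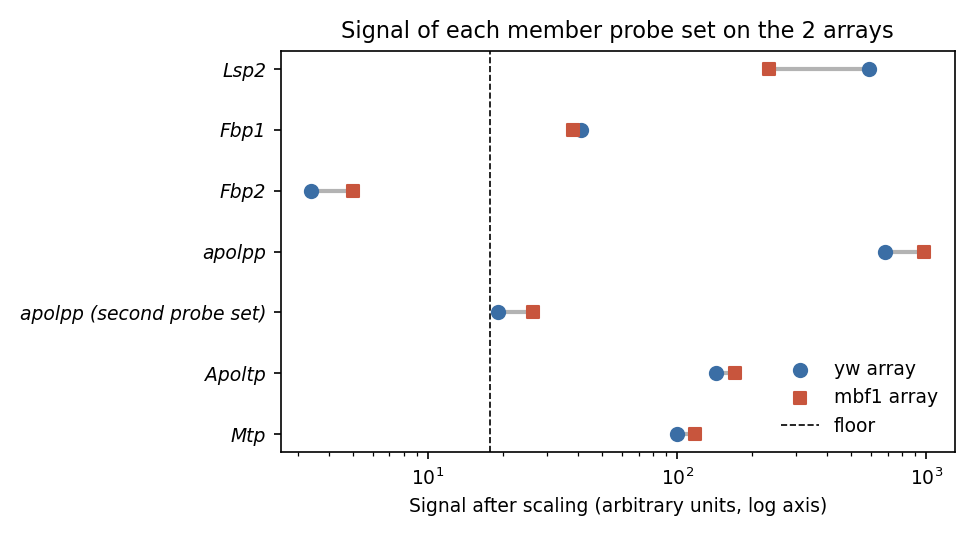
Signal of each of the 7 member probe sets in yw (circles) and in the mbf1 mutant (squares), after scaling, on a log axis in arbitrary units; each point is 1 array and the dashed line is the floor of 17.7. Lsp2 is the widest pair, 588.1 against 232.6, and Fbp2 is the only gene under the floor on both arrays; distances between different probe sets along the axis are not differences in transcript number.

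Lsp2 encodes the subunit of larval serum protein 2, a hexamerin formed of this subunit alone. Its signal was 588.1 in yw and 232.6 in the mutant, both far above the floor. The yw value was 2.53-fold the mbf1 value, and the log2 ratio was -1.34. That was the 50th lowest ratio among the 7675 measured genes, and 0.651% of them had a ratio as low. The 500 measured genes nearest to Lsp2 in signal had a robust SD of ratios of 0.31, which describes the spread of genes on these arrays and not an error of replicates. In the deposited intensities, before scaling, Lsp2 was 588.1 and 340.9, a log2 ratio of -0.79 or 1.73-fold. The gene thus lay past the 2-fold threshold with scaling and inside it without scaling, and it was lower in the mutant either way. Without scaling 0.431% of measured genes were called lower; with scaling on hybridization controls, where Lsp2 was at -1.12, 0.999% were called lower and 3.05% higher.

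Lsp2 was read by 1 probe set. The gene table of the Release 6 assembly places an antisense RNA gene, asRNA:CR11538, over 84.6% of the Lsp2 gene. A probe set annotated with this antisense gene had a signal of 41.8 in yw and 16.9 in the mutant. The second value was under the floor, so with the main scaling the antisense probe set was at least 2.36-fold lower in the mutant. On hybridization controls, where both values passed the floor, it was 2.13-fold lower, and in the deposited intensities it was 1.69-fold lower, inside the 2-fold threshold. Both readings from this locus were therefore lower in the mutant. Which strand each probe set reads was not checked here, since no probe sequences were used, and reads of sense and antisense RNA cannot be told apart. On the other side of Lsp2, DEF8 had signals of 41.2 and 42.6, a ratio of 0.05.

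Over the 2 arrays, the genes most like Lsp2, by the distance between their pairs of log2 signals, were CG8343 at 0.062, the complex I subunit gene ND-15 at 0.14 and the troponin C gene TpnC4 at 0.20. CG8343 had signals of 570.1 and 225.8. Within a distance of 0.5 there were 6 genes. The measure rests on 2 values per gene, and similar brightness on different probe sets does not mean similar transcript number.

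Fbp1 encodes the fat body receptor that takes hexamerins back from the haemolymph, and its transcription in the larva is induced by ecdysone. Its signal was 41.3 in yw and 38.1 in the mutant. The pair was close, at a log2 ratio of -0.12, and both values were above the floor. The sign depended on the scaling, since the ratio was 0.10 with scaling on hybridization controls and 0.44 without scaling. In these 2 settings the median of all measured genes was 0.19 and 0.50, so Fbp1 stayed slightly below it.

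Fbp2 encodes a fat body protein of the alcohol dehydrogenase family. Its signal was 3.40 in yw and 5.02 in the mutant, under the floor on both, so no ratio is given. Its relatives Adh, alcohol dehydrogenase, and Adhr were annotated only together, on 2 shared probe sets, and are not analysed here. Pdh, a retinol dehydrogenase of the pigment cells of the eye, had signals of 209.0 and 216.6, a ratio of 0.05.

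apolpp encodes the precursor of apolipophorins I and II, the structural proteins of lipophorin. Its brighter probe set gave 680.7 in yw and 978.8 in the mutant. The mutant value was 1.44-fold higher, a log2 ratio of 0.52, and 9.06% of measured genes had a ratio as high. The second apolpp probe set was dim, at 19.1 and 26.4, slightly above the floor. It gave a ratio of 0.46, so both probe sets of apolpp differed little in ratio although their signals lay far apart. In the deposited intensities the brighter probe set read 680.7 and 1434, a ratio of 1.08, which passes the 2-fold threshold. Without scaling, 10.1% of measured genes were at least 2-fold higher.

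Apoltp encodes the apolipoprotein of the lipid transfer particle, which loads lipophorin with lipid. Its signal was 143.1 in yw and 170.9 in the mutant, a log2 ratio of 0.26. Mtp encodes the microsomal triglyceride transfer protein, which lipidates apolipophorin during its assembly. Its signal was 100.05 in yw and 117.4 in the mutant, a log2 ratio of 0.23. These are small differences: 24.3% of measured genes had a ratio as high as Apoltp and 26.3% one as high as Mtp. The robust SD among the genes of nearest signal was 0.36 for apolpp, 0.35 for Apoltp and 0.31 for Mtp, so Apoltp and Mtp lay within 1 such SD of 0 and apolpp outside it.

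**Figure D2:**
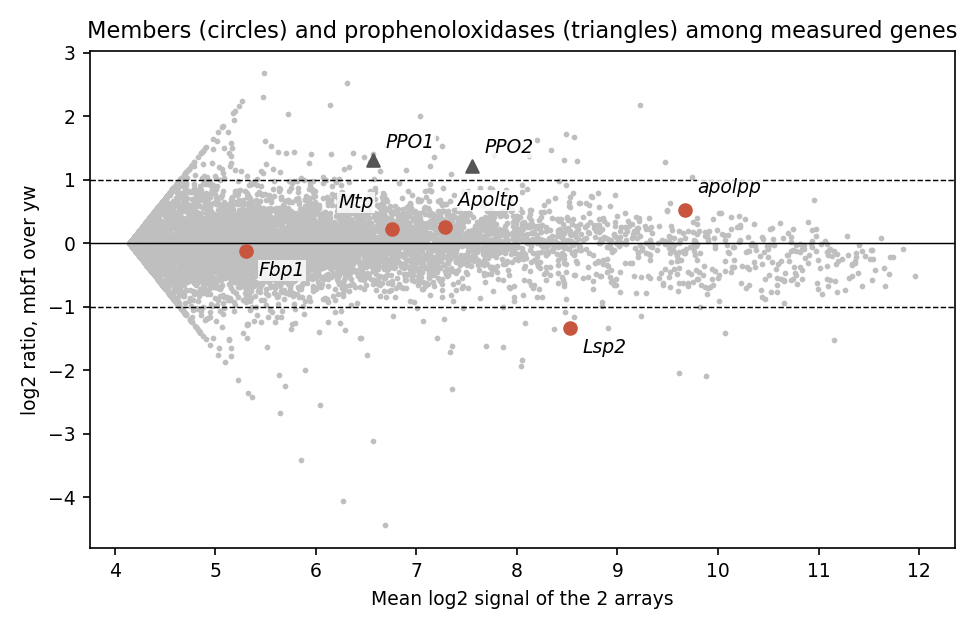
Log2 ratio of mbf1 over yw against the mean log2 signal of the 2 arrays for the 7675 measured genes (grey), with signals under the floor raised to it; the 5 measured members are circles, the prophenoloxidase genes PPO1 and PPO2 are triangles, and dashed lines mark 2-fold. Lsp2, at -1.34, lies below the lower line, and the 4 other measured members lie between -0.12 and 0.52.

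A shift common to a whole array leaves the difference between the ratios of 2 members unchanged. The ratio of apolpp lay 1.86 above that of Lsp2 on the log2 scale, or 3.64-fold. For Apoltp the distance to Lsp2 was 1.59, for Mtp 1.57 and for Fbp1 1.22. Quantile normalization and loess, which shift bright and dim genes by different amounts, gave 1.96 and 1.94 for apolpp and between 1.22 and 1.59 for the other 3 genes. The main scaling, the hybridization controls and the deposited values differ only by such a common shift, so they share the same distances. Lsp2 therefore stood lower against each of the other measured members with any common shift, with quantile normalization and with loess. Among the lipoprotein genes themselves, the ratio of Mtp minus that of apolpp was -0.29.

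**Figure D3:**
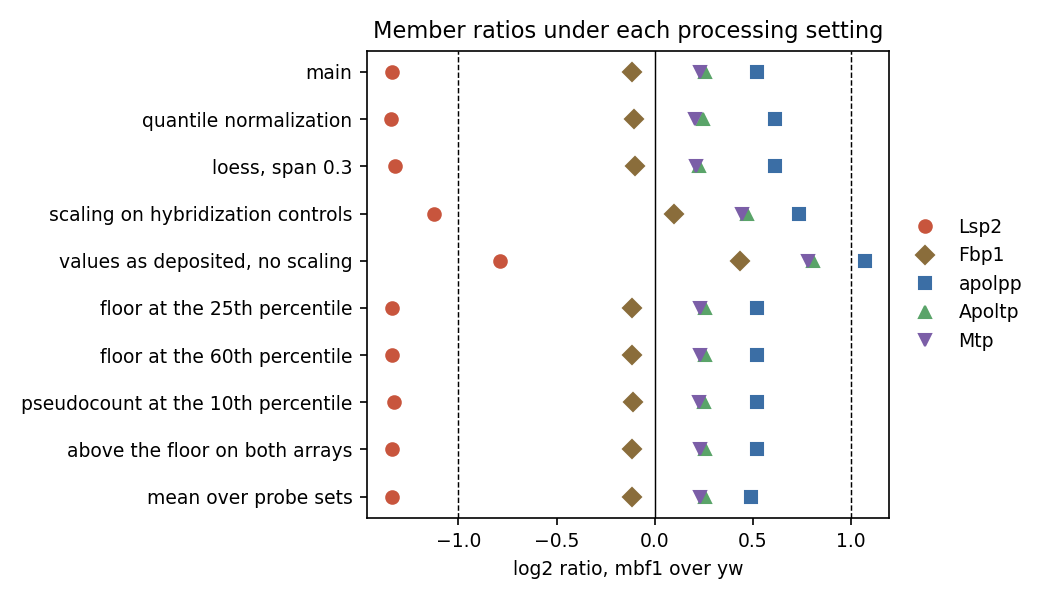
Log2 ratio of mbf1 over yw of the 5 measured members, 1 symbol per gene, under the main setting and 9 alternatives; dashed lines mark 2-fold. Lsp2 is left of 0 in every setting and right of the lower 2-fold line only for the values as deposited, at -0.79, while Fbp1 crosses 0.

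Prophenoloxidases belong to the same protein superfamily as the hexamerins but carry copper and start melanin synthesis. PPO1 had a signal of 60.4 in yw and 149.5 in the mutant, a log2 ratio of 1.31. PPO2 had 123.2 and 287.2, a ratio of 1.22. Both were at least 2-fold higher in the mutant, where Lsp2 was lower, and both stayed above 1.19 under the other scalings. PPO3 was under the floor on both arrays, at 13.3 and 16.7, as was the second probe set of PPO2. PPO1 and PPO2 are made by crystal cells, a kind of blood cell. Among haemocyte markers, 6 of 8 genes were above the floor on both arrays and eater and Sr-CI were under it on both; the 8 signals summed to 592.1 in yw and 598.0 in the mutant. Their measured ratios lay on both sides of 0, and 0 of 6 were 2-fold apart. NimC1 was at 0.70, crq at 0.59 and Hml at 0.53, while vkg was at 0.01, Col4a1 at -0.21 and Pxn at -0.40. Without scaling NimC1, crq and Hml, of 7 then measured, were at least 2-fold higher, at 1.24, 1.14 and 1.08. Of all genes measured without scaling 10.1% were at least 2-fold higher, and their median ratio was 0.50. The part of haemocytes in the ratios of the prophenoloxidases was not tested.

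Lipophorin is taken up through receptors of the low density lipoprotein receptor family. LpR1 read 59.2 in yw and 64.4 in the mutant, at a log2 ratio of 0.12. LpR2 read 56.3 and 40.3, at -0.48. LpR2 turned to 0.07 without scaling, where the median of all measured genes was 0.50. The yolk protein receptor gene yl was dim, at 23.5 and 13.7, and at least 1.32-fold lower in the mutant. None of the 3 measured of 7 receptor genes was 2-fold apart.

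Genes of lipid storage and synthesis had a median of 0.01, close to that of all genes. Of 21 measured genes 1 was at least 2-fold lower and 0 were higher. The lower one was mag, a secreted gut lipase, with signals of 330.3 and 164.7 or 2.01-fold, at the threshold itself. Without scaling its ratio was -0.45 and with scaling on hybridization controls -0.79, so that 0 genes of the list were then at least 2-fold lower. Without scaling 2 of 21 were at least 2-fold higher, FASN2 and Akh, the gene of adipokinetic hormone, beside 10.1% of all measured genes. The lipid droplet protein genes Lsd-1 and Lsd-2 had ratios of -0.31 and -0.08, the fat triglyceride lipase gene bmm 0.08, and the fatty acid synthase genes FASN1 and FASN2 0.13 and 0.61. Ratios of this list therefore lay on both sides, 10 below 0 and 11 above it.

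Other secreted haemolymph proteins had a median ratio of 0.09, and 0 of 17 measured genes were 2-fold apart. Without scaling 3 of 18 were at least 2-fold higher, Hml, Idgf1 and Idgf2, beside 10.1% of all measured genes. With the main scaling Obp99b, an odorant-binding protein made in the fat body, was nearest to the threshold, with signals of 406.4 and 226.6 and a ratio of -0.84. smp-30, a relative of the calcium-binding protein regucalcin, had 393.3 and 220.2, also at -0.84. The iron carrier gene Tsf1 had 969.0 and 1030, a ratio of 0.09, and the ferritin genes Fer1HCH and Fer2LCH had ratios of 0.10 and 0.13. Idgf1, a chitinase-like growth factor, had 19.4 and 31.9, a ratio of 0.72.

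**Figure D4:**
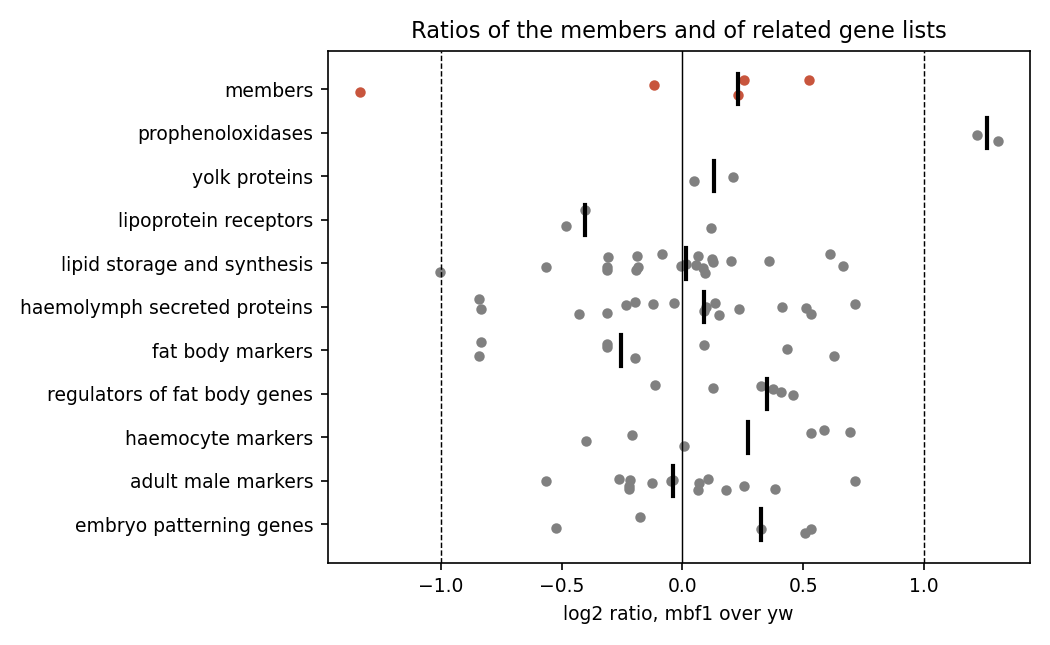
Log2 ratio of mbf1 over yw for each measured gene (points, spread vertically at random) and the median (bar) of the members and of 10 related lists; dashed lines mark 2-fold, and a ratio with 1 array under the floor is drawn at its bound. With this scaling, among the genes drawn only Lsp2, mag, PPO1 and PPO2 reach a dashed line. Genes in more than 1 list, among them Hml and most fat body markers, are drawn in each.

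Other markers of the fat body were mostly bright on both arrays. Of 9 with a probe set of their own, 8 were above the floor on both and the receptor gene AkhR, at 12.4 and 13.0, was under it. The 9 signals summed to 4440 in yw and 4246 in the mutant. Most of these markers, among them Obp99b, smp-30, Tsf1, Lsd-1 and AkhR, were also counted in the haemolymph or lipid storage lists. The median ratio of the 8 was -0.25, with Obp99b and smp-30 at the low end and Pepck1, an enzyme of glucose synthesis, at 0.63 with signals of 592.0 and 916.1. Pepck1 was at 1.18 without scaling, the 1 marker of the 8 then past 2-fold, where 10.1% of all measured genes were at least 2-fold higher. The median was 0.30 without scaling, where that of all genes was 0.50, and -0.04 with scaling on hybridization controls, where that of all genes was 0.19. Of the yolk proteins, which adult female fat body makes, Yp1 was under the floor at 3.59 and 2.51. Yp2 had signals of 25.4 and 26.3 and Yp3 had 31.1 and 36.02, with ratios of 0.05 and 0.21.

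Regulators of fat body genes were mostly too dim to compare. Of 16 genes with a probe set 10 were under the floor on both arrays, among them the ecdysone receptor gene EcR at 6.79 and 2.01 and its partner gene usp at 15.8 and 15.4. srp, the GATA factor of the fat body, was at 13.6 and 23.0, at least 1.30-fold higher in the mutant, and crp was at least 1.37-fold higher. Hr78, a nuclear receptor, had signals of 42.9 and 56.9, a ratio of 0.41, and Hnf4, the nuclear receptor of lipid breakdown, had 103.3 and 112.8, a ratio of 0.13. In all, 0 of 6 measured regulators were 2-fold apart; their median ratio of 0.35 rests partly on bounds, since 4 of them were above the floor on 1 array only.

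The labelled stage was set beside stage markers. Seminal fluid and sperm genes of the adult male were above the floor on both arrays for 15 of 15 genes, and their signals summed to 16264 in yw and 14927 in the mutant. Their median ratio was -0.04, with Mst77F, a sperm chromatin protein, at 0.72 (1.27 without scaling), Acp62F, a seminal protease inhibitor, at -0.57 and Acp26Ab at 0.38. Of 11 embryonic patterning genes 5 passed the floor in yw or in the mutant. Among them kni was at least 1.45-fold and eve at least 1.42-fold higher in the mutant. The ratio of hb was -0.53 and turned to 0.03 without scaling, where the median of all measured genes was 0.50. Kr, gt, en, Antp, sna and tll were under the floor on both. Their 11 signals summed to 168.8 and 185.4. Salivary gland genes of the larva were under the floor on both arrays for 7 of 8 genes, and Sgs8 had 27.8 and 25.8. Whether patterning or salivary gland genes are bright in embryos of the labelled age was not tested. Low signals of these genes therefore cannot decide the stage. Male genes were thus bright on both arrays despite the embryo label, with the summed level 16264 against 14927. The values of the members, Lsp2 among them, therefore cannot be taken as those of embryos alone. The eye arrestin genes Arr1 and Arr2 read 870.3 and 1297 in yw and 866.8 and 1186 in the mutant. The adult cuticle protein genes Acp65Aa and Acp1 read 314.7 and 1946 in yw but 19.0 and 459.3 in the mutant. With 1 array per genotype, a difference in age or stage between the animals cannot be told apart from one of genotype. The part of male tissue, age or stage in the Lsp2 difference was not tested.

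Genes next to the members along the chromosomes were mostly close to 0. Of 36 neighbours, 2 on each side of each member including the unread Lsp1 genes, 18 had a probe set of their own and 8 were measured. Their ratios ran from -1.24 to 0.53, and asRNA:CR11538 beside Lsp2 was the single one past 2-fold with each of the 4 scalings between the arrays. Without scaling it was inside 2-fold, and FucTB, at 1.08, was the single one past it, where 10.1% of all measured genes were at least 2-fold higher. Next to Fbp2, FucTB had a ratio of 0.53, Mco1 0.34 and CG4438 -0.01, while Fbp2 itself was under the floor. Next to Lsp1alpha, mdu had -0.15. GlcAT-S, next to Apoltp, had 0.07, and RPA2, next to Mtp, was under the floor in yw and at least 1.15-fold higher in the mutant. The 4 genes around Fbp1, CG8100, btl, Sox21a and Sox21b, were under the floor on both arrays, where Fbp1 itself was above it.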

How the data were processed

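Total RNA of each genotype was hybridised to 1 array, and 2 arrays were used. The deposited intensities are linear signals, 1 for each probe set and array; MAS5 is named per the submitters' processing notes, while its version, target level and a genome build were not given in the sources used here. As deposited, the arrays were not at one level, with means of 60.1 for yw and 87.8 for mbf1 once 2% at either end was trimmed. Columns of other samples numbered 0. Scanner settings were not used.

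Of 14010 probe sets 44 were controls. The platform annotation gave 1 symbol for 12443, several for 327 and none for 1240, and 12393 were matched by gene identifier to the Release 6 gene table, which changed 0 symbols and served also for neighbours. A gene was represented by its probe set of highest mean log2 signal.

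To centre the log2 ratio, its median was taken over the probe sets in the brighter 50% of each array and subtracted. The floor was the 40th percentile of the pooled scaled signals, and a fold from or to it is a lower bound. Calls were ratios of at least 2-fold; no p-values were computed. Steps ran in Python 3.11.15 with numpy 2.4.6, pandas 2.3.3, scipy 1.17.1, statsmodels 0.14.6 (loess) and matplotlib 3.10.9, and were tested on simulated data. The members, the 12 companion lists and the alternatives were chosen with earlier results of these data known. Named were all members, prophenoloxidases, Fbp2 relatives, yolk proteins, mbf1, the 2 neighbours on each side and the 3 genes most like Lsp2. In other lists up to 6 genes at least 2-fold apart, or else the 3 of largest ratio, were named. Named after their values were seen were Lsd-1, Lsd-2, bmm, FASN1, FASN2, Tsf1, Fer1HCH, Fer2LCH, Idgf2, Akh, AkhR, EcR, usp and Hnf4. So were Arr1, Arr2, Acp65Aa, Acp1 and genes said to be under the floor. Only 1 array per genotype limits the precision.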

Additional observations from a re-analysis of the deposited data

How the results depend on the processing

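No paired analysis was possible because each genotype had 1 array. A gene's ratio counted as moved when an alternative shifted it beyond 1 robust SD of its 500 nearest genes in signal, and a median beyond the standard error that the spread of all ratios gives for its number of genes. Of 45 member ratios under 9 alternatives 40 stayed within that distance, many of them because the setting could not change the value. The 5 that moved were those without scaling, where the whole array shifted by construction: -0.79 for Lsp2, 0.44 for Fbp1, 1.08 for apolpp, 0.81 for Apoltp and 0.78 for Mtp. Lsp2 was past 2-fold in 8 of 9 alternatives, between -1.34 and -1.12. Other floors, the demand that both signals pass the floor and the mean over probe sets left its ratio at the main value. Its signals passed every floor and it has 1 probe set, so only the scalings and the pseudocount could move it. The same held for the other measured members, except that apolpp has a second probe set. Without scaling 0 members were at least 2-fold lower and 1 was higher, beside 0.431% and 10.1% of all measured genes. At 3-fold 0 members were lower. Hybridization controls gave a member median of 0.45, and the deposited values one of 0.78. Over all measured genes the medians in these settings were 0.19 and 0.50.

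All genes at least 2-fold higher and lower numbered 116 and 124. They were 797 and 34 without scaling, 235 and 77 on hybridization controls, 279 and 256 under the 25th percentile floor, 53 and 58 under the 60th, 226 and 200 with a pseudocount at the 10th, 572 and 592 at 1.5-fold, and 24 and 29 at 3-fold.

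The median of all measured genes was 0.50 without scaling and 0.19 on hybridization controls, and list medians are to be read beside it. Without scaling list medians were 0.51 for adult male, 0.79 for embryonic patterning, 0.30 for fat body, 0.56 for haemocyte, 0.58 for haemolymph, 0.56 for lipid storage, 0.070 for receptor and 0.60 for regulator genes. On hybridization controls they were 0.17 for adult male, 0.54 for patterning, -0.039 for fat body, 0.49 for haemocyte, 0.24 for haemolymph and 0.23 for lipid storage genes. Adult male genes were at 0.11 with quantile normalization and 0.085 with loess, patterning genes at -0.18 when both signals had to pass the floor, and haemocyte genes at 0.0078 under the 60th percentile floor; fewer genes remained in the last 2 cases. With the main setting 3168 genes, Fbp2 among them, were under the floor in yw and mutant and have no ratio. Measured genes numbered 9255 under the 25th percentile floor and 7883 without scaling.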
